A study of Mus musculus with 8 samples.

Results

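The genes described here are 33 mouse genes listed by name because variants in their human counterparts are known as risk factors for autism, leaving out ion channels and most proteins of the synapse itself. They were looked up by symbol in 3 tables of gene expression and 3 tables of cassette exons. Of the 33, 32 had expression values, out of 15598 genes in the table that compares knockdown with control. Foxp2, a forkhead transcription factor gene, was not analysed here. The list does not separate fully from the synapse: Iqsec2, for example, codes for an exchange factor of the postsynaptic density.

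RNA-seq was done on cultured mouse hippocampal neurons, with 8 samples in 4 groups of 2, all collected at 14 days in vitro (DIV). All groups received an adeno-associated virus (AAV2/9) with a neuron-specific synapsin promoter (SynI) at 9 DIV, at 1500 genomic copies per cell for 12 hours, and Accell siRNA, which enters cells without a transfection reagent, from 10 DIV for 4 days. The control group had virus coding for the green fluorescent protein EGFP, with non-targeting siRNA. In the knockdown group the EGFP virus was combined with siRNA against Rbfox1 and Rbfox3. The cytoplasmic rescue and nuclear rescue groups had the same siRNA against Rbfox1 and Rbfox3 and a virus coding for Flag-tagged Rbfox1, as the isoform labelled C or N, each marked siMt in the labels. Whether the samples within a group are separate cultures is not stated in the labels, and the deposited tables give 1 value per group, so no spread between samples can be given.

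Rbfox1 and Rbfox3 are RNA-binding proteins of neurons. In the nucleus they bind TGCATG motifs, mostly in introns, and change whether nearby exons are kept. Isoforms of Rbfox1 that stay in the cytoplasm bind the same motif in 3′ untranslated regions (3′UTRs) of messenger RNAs and affect their level. The autism risk genes listed here fall outside this machinery by function. They code for chromatin remodellers and histone-modifying enzymes (Chd8, Arid1b, Ash1l), transcription factors (Tbr1, Tcf4, Myt1l), ubiquitin ligase components (Cul3, Ube3a), brakes on growth signalling (Tsc1, Tsc2, Nf1), adhesion proteins (Cntnap2, Dscam, Pcdh19) and cytoskeletal linkers (Ank2, Ctnnb1). RBFOX1 itself is discussed as an autism gene. The comparisons ask whether RNA of the other risk genes changes when Rbfox1 and Rbfox3 are lowered together, and when an Rbfox1 isoform is added back.

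The siRNA target genes followed the labels. Rbfox1 measured 25.7 FPKM (fragments per kilobase of transcript at a standard library size, a level corrected for length) in control, 1.94 in knockdown, 16.1 in the cytoplasmic rescue and 38.2 in the nuclear rescue. Rbfox3 measured 12.4, 1.59, 1.59 and 1.53 FPKM in the same order. Pan-neuronal markers summed to 1331 FPKM in control, but astrocyte markers also summed to 1114, so the cultures held glia. In the knockdown, 3 of 6 microglial markers were called lower (sum 9.37 to 5.19 FPKM), 3 of 7 oligodendrocyte-lineage markers were called higher (sum 165 to 185) and no list had a marker at 0 in control among those measured. Of 8 interneuron markers 2 were called lower and 1 higher, and of 5 excitatory-neuron markers 1 was called lower. The part of these shifts in the values below was not tested, and in bulk RNA fewer cells of a type and less RNA per cell cannot be told apart. Sequencing depth per sample is unknown, since no library totals were used here.

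Messenger RNA of the autism risk genes stayed within 1.5 times of its control level when Rbfox1 and Rbfox3 were lowered, and again when either Rbfox1 isoform was added back. The authors' tests set the rescues against knockdown, so the rescues were not tested against control. In none of the 3 comparisons did any of the 32 genes pass the authors' threshold of q below 0.05. In the authors' deposited tables that threshold was passed by 2.35% of all genes in the knockdown, 0.506% in the cytoplasmic rescue against knockdown, and 0.11% in the nuclear rescue against knockdown, so 0 of 32 lies near the share over all genes. Without adjustment for the number of genes, p was below 0.05 for 1 risk gene in the knockdown (10.9% of all genes), for 2 in the cytoplasmic rescue (5.33%) and for 1 in the nuclear rescue (1.05%), by the authors' test. The ratio of the highest to the lowest of the 4 group levels ran from 1.04 in Trip12 and Nf1 to 1.44 in Tbr1, with a median of 1.17, and was under 1.5 in all 32.

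**Figure D1:**
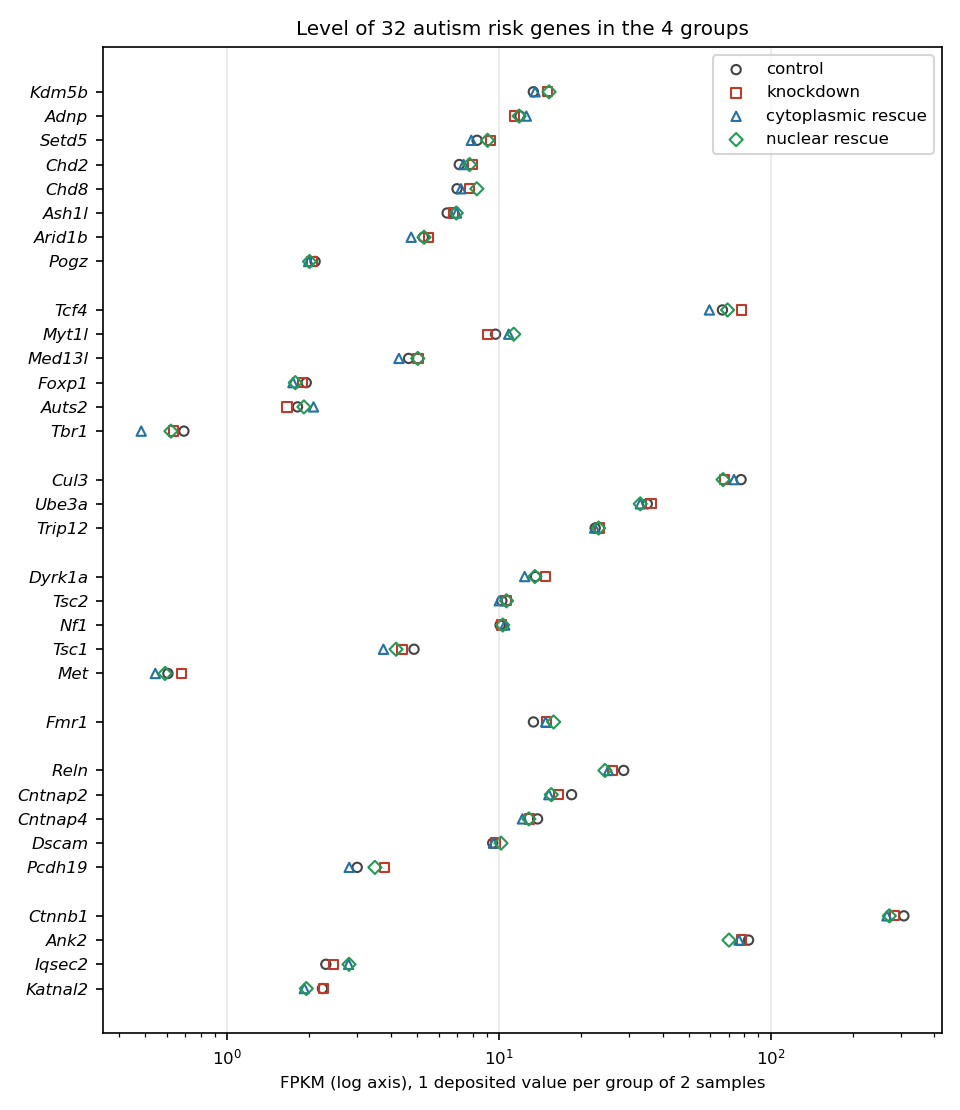
FPKM of the 32 measured autism risk genes, 1 deposited value for each of the 4 groups on a log axis, with genes ordered by functional class and, within a class, by control level. The 4 symbols of a gene lie close together, at most 1.44 times apart, while the genes themselves run from 0.606 to 308.7 FPKM in control.

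Levels of the genes themselves spanned a wide range. Ctnnb1, coding for beta-catenin, which links cadherins to actin and carries Wnt signals, was highest at 308.7 FPKM in control. Ank2, coding for an ankyrin that ties membrane proteins to spectrin, followed with 82.8 and Cul3, a scaffold of cullin ubiquitin ligases, with 77.7. The median control level was 9.60 FPKM, against 6.54 over all genes. Met, a receptor tyrosine kinase gene, and Tbr1, a transcription factor gene of deep-layer cortical neurons, lay below 1 FPKM in every group, at 0.606 and 0.694 in control, and the other 30 were at 1 FPKM or more in every group. The genes are long: their annotated loci had a median span of 108 kb, against 25.9 kb for all genes with at least 1 FPKM in control, and 17 of 32 exceeded 100 kb, against 16.3% of those genes. For 4 of them the locus in the table covers under 80% of the RefSeq gene, so their FPKM may rest on part of the gene. The locus covers 13.3% in Ank2, 65.8% in Chd8, 75.9% in Katnal2 and 75.9% in Pogz. Reads were not strand-specific, and 13 of the 33 genes have exons that overlap a gene on the opposite strand, such as Snhg14 at Ube3a, whose reads cannot be told apart from theirs. The expression tables give 4 of them one joint locus with a neighbour, Tsc2 with Pkd1, Auts2 with 4930563F08Rik, Ube3a with A230073K19Rik and Nf1 with Evi2a, Evi2b and Omg, and the part of that in their FPKM was not tested.

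The error used below is the one implied by the authors' test, obtained as the ratio of fold change to test statistic. It does not come from values of single samples, which were not analysed here. Its median over the 32 genes was 0.15 on the log2 scale in the knockdown and 0.16 in each rescue. With that error a change had to reach 0.50, 0.55 and 0.56 on the log2 scale in the 3 comparisons for its p to be as small as the largest p the authors called. The interval of 95% from this error lay within 1 on either side of 0 for all 32 genes in each comparison, which excludes a doubling or halving of FPKM under that error. It lay within 0.5 for 27 genes in the knockdown, 20 in the cytoplasmic rescue and 24 in the nuclear rescue. The intervals use the error of each gene. The limits of 0.50, 0.55 and 0.56 hold for a gene with the median error, and a gene with a smaller error would be called at a smaller change.

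**Figure D2:**
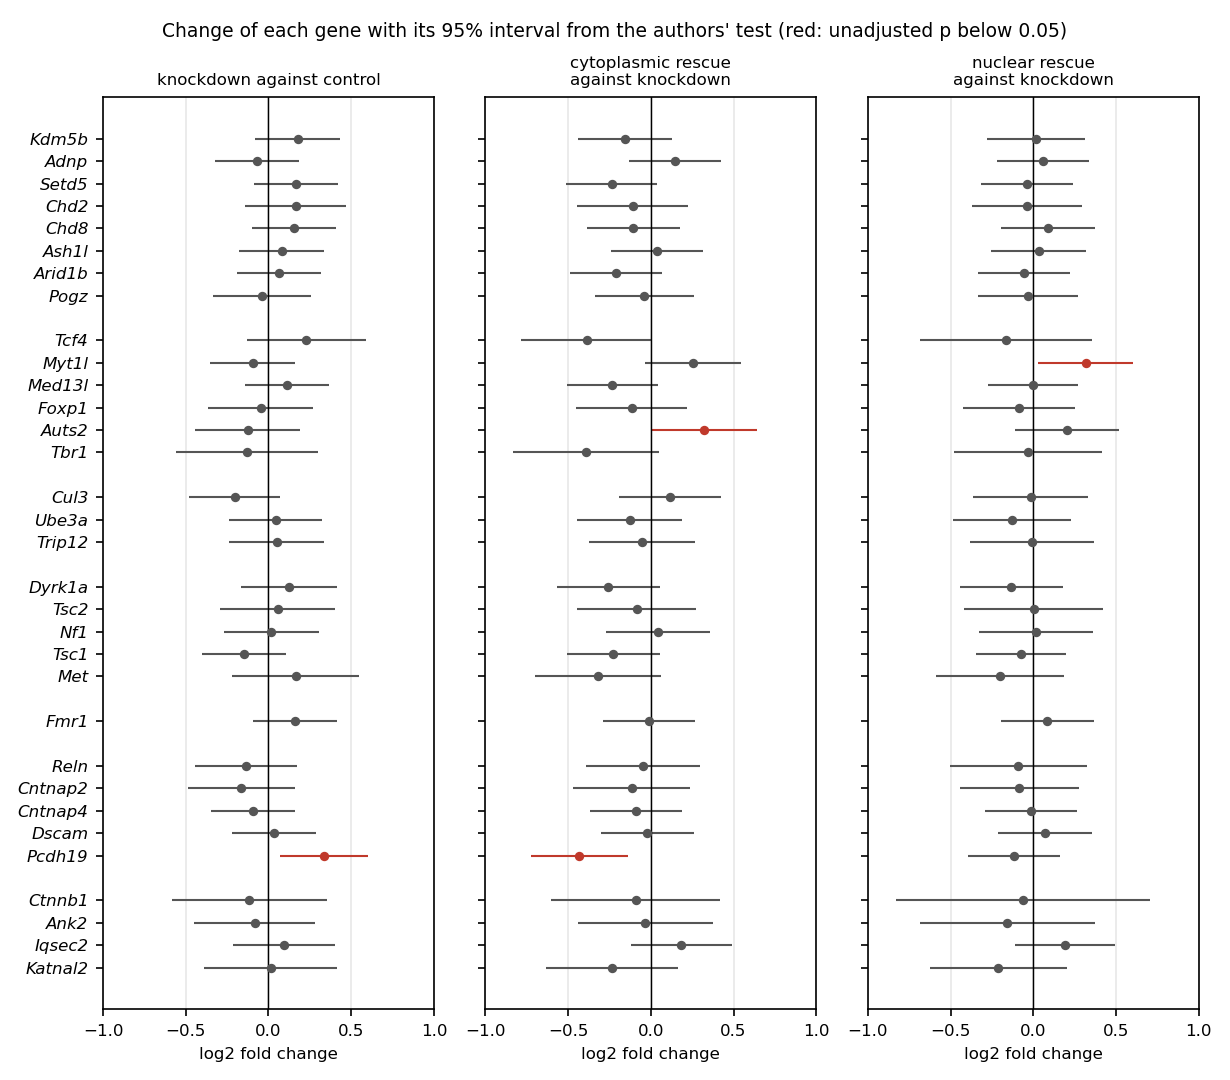
Log2 fold change of each of the 32 autism risk genes in the 3 comparisons, with its interval of 95% from the error implied by the authors' test (points are values, lines are intervals, red marks an unadjusted p below 0.05). Pcdh19, Auts2 and Myt1l hold the 4 red intervals, and all intervals lie between -1 and 1.

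Chromatin regulators varied little. The 8 genes were Chd8 and Chd2, remodelling ATPases, Adnp, a partner of Chd4, Arid1b, a DNA-binding subunit of the BAF complex, Pogz, a zinc-finger protein of heterochromatin, Ash1l and Setd5, SET-domain proteins, and Kdm5b, a demethylase of histone H3. Chd8, among the genes most often hit by new variants in autism, measured 7.01 FPKM in control, 7.80 in knockdown, 7.25 in the cytoplasmic and 8.29 in the nuclear rescue. Arid1b measured 5.27, 5.51, 4.75 and 5.30 FPKM, and Adnp 12.0, 11.4, 12.6 and 11.9. In both genes the 4 groups lay within 1.16 times of each other. Setd5 measured 8.31, 9.33, 7.91 and 9.08 FPKM and Kdm5b 13.4, 15.1, 13.6 and 15.3, each higher in knockdown and nuclear rescue than in control and cytoplasmic rescue. None of these differences passed. Pogz lay at 2.11 FPKM in control and between 2.0 and 2.05 in the other groups, Ash1l between 6.45 and 6.99, and Chd2 between 7.15 and 8.01. Over the class the median log2 fold change in the authors' deposited tables was 0.12 in the knockdown, with 6 of 8 above 0, -0.11 in the cytoplasmic rescue, with 6 of 8 below 0, and -0.01 in the nuclear rescue. All genes had medians of 0.02, -0.06 and -0.02. Of all genes 55.3% lay above 0 in the knockdown, and 10425 of 15514 lay below 0 in the cytoplasmic rescue. On 8 genes these sign counts do not set the class apart. Both rescues are measured against the same knockdown samples, so their fold changes and those of the knockdown are not independent.

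Among transcription factors and co-regulators of at least 1 FPKM, Tcf4, Myt1l and Auts2 gave the largest absolute fold changes in the rescues, and Tbr1, under 1 FPKM, is given after them. Tcf4 (chromosome 18, 69504146 to 69847621 in mm9) codes for a basic helix-loop-helix factor whose loss causes Pitt-Hopkins syndrome. It measured 66.4 FPKM in control, 77.8 in knockdown, 59.5 in the cytoplasmic rescue and 69.3 in the nuclear rescue. The knockdown group was highest and the cytoplasmic rescue lowest. In the authors' deposited tables its log2 fold change was 0.23 in the knockdown (implied error 0.18) and -0.39 in the cytoplasmic rescue (implied error 0.20, p = 0.0553 and q = 0.825 by the authors' test). In the nuclear rescue it was -0.17 (implied error 0.27).

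Myt1l (chromosome 12, 30213249 to 30608074 in mm9), which codes for a zinc-finger factor that represses non-neuronal genes in neurons, was lowest in knockdown and highest in the nuclear rescue. It measured 9.72 FPKM in control, 9.10 in knockdown, 10.9 in the cytoplasmic rescue and 11.3 in the nuclear rescue, and both rescue groups were above control. The authors' deposited tables give log2 fold changes of -0.09 (implied error 0.13) in the knockdown, 0.25 (implied error 0.15) in the cytoplasmic rescue and 0.32 (implied error 0.15) in the nuclear rescue. The last had p = 0.0312 before adjustment and q = 0.641, by the authors' test.

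Auts2 (chromosome 5, 131913552 to 133018213 in mm9), which codes for a nuclear protein that works with a Polycomb complex in neurons, had the same order of groups but for the rescues. It measured 1.82 FPKM in control, 1.66 in knockdown, 2.08 in the cytoplasmic rescue and 1.92 in the nuclear rescue. Its log2 fold changes in the authors' deposited tables were -0.13, 0.32 and 0.20, each with an implied error of 0.16. In the cytoplasmic rescue p was 0.0464 before adjustment and q 0.765, by the authors' test. For Auts2 and Myt1l these are the signs of a fall in knockdown and a rise in both rescues, but none of the 6 values passed q below 0.05, and the rescues share the knockdown value.

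The cytoplasmic isoform is known to act through 3′UTR motifs, so the annotated 3′UTRs (GENCODE, mouse build GRCm38) were searched for TGCATG on the transcript's strand. Auts2 carries 1 match in its 3′UTR of 1648 bases, shown here with the motif in capitals because Auts2 was the risk gene with the largest positive value in the cytoplasmic rescue. It starts 1374 bases after the stop codon, at chr5:131438045-131438074 on the minus strand of GRCm38:

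Auts2 3′UTR site: agagagagaacaTGCATGcacgcgctcttg

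The match also overlaps CATGCA, the reverse complement of the motif. A match anywhere in the 3′UTR was found in 17 of 32 risk genes (53.1%), Auts2 among them, and in 36.1% of 13024 genes. A longer 3′UTR gives more room for a match, and the median length was 2297 bases in the risk genes against 1173. In a band of 3′UTR lengths where the risk genes ran from 1019 to 1994 bases, 4 of 6 risk genes had a match (66.7%). Among all genes in that band 38.7% of 3264 had one, so the gap was no smaller there, on only 6 risk genes. Whether length accounts for the gap was not tested. Myt1l and Pcdh19 have no match to TGCATG in 3′UTRs of 2732 and 5128 bases. In a window of equal length, the first 1000 bases of the 3′UTR, which does not reach the Auts2 site, TGCATG occurred in 8 of 27 risk genes with a 3′UTR that long (29.6%) and in 29.0% of 7201 genes, so in that window the risk genes carried it about as often as other genes. CATGCA, searched on the same strand, occurred in 14.8% and 25.7%. The 8 genes with a match in the window were Dscam, Dyrk1a, Fmr1, Foxp1, Iqsec2, Pogz, Setd5 and Tbr1. Of the genes at 1 FPKM or more, 7 risk genes with a match in the window had a median log2 fold change of -0.04 in the cytoplasmic rescue and 18 without, Auts2 included, had -0.08, and over all genes the medians were -0.04 and -0.08. A match is a description of letters and does not show binding.

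The other members of this class were Foxp1, a forkhead factor gene, at 1.96, 1.89, 1.75 and 1.78 FPKM in control, knockdown, cytoplasmic and nuclear rescue, and Tbr1 at 0.694, 0.635, 0.483 and 0.622 in the same order. Tbr1, picked after its values were seen because its group levels differed by the largest ratio, was lowest in the cytoplasmic rescue, which the authors' deposited table gives as -0.39 on the log2 scale (implied error 0.23, p = 0.0808 by the authors' test). Med13l, a subunit of the Mediator kinase module, measured 4.65, 5.03, 4.29 and 5.03 FPKM. Its log2 fold changes in the authors' deposited tables were 0.11, -0.23 and -0.00, with implied errors of 0.13, 0.14 and 0.14.

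Ubiquitin ligase components kept their levels within narrow bounds. Cul3 (chromosome 1, 80263393 to 80337005 in mm9) measured 77.7 FPKM in control, 67.5 in knockdown, 73.2 in the cytoplasmic and 66.7 in the nuclear rescue. Its log2 fold change of -0.20 in the knockdown (implied error 0.14) was the lowest of the 32 genes in the authors' deposited table (p = 0.148 by the authors' test), and in the rescues it was 0.12 and -0.02. Ube3a, the ligase gene lost in Angelman syndrome, measured 35.1, 36.2, 33.1 and 33.1 FPKM, and Trip12, a HECT-type ligase gene, 22.6, 23.4, 22.5 and 23.3. To 2 decimals, Trip12 and Nf1 shared the smallest ratio over the 4 groups.

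Of the genes that limit growth signalling, Tsc1 was highest in control, at 4.87 FPKM, and measured 4.40 in knockdown, 3.76 in the cytoplasmic and 4.18 in the nuclear rescue. Its partner Tsc2 measured 10.2, 10.6, 10.0 and 10.7 FPKM. The 2 proteins form the complex that restrains mTOR, and neither RNA passed in any comparison. The log2 fold changes of Tsc2 in the authors' deposited tables were 0.06, -0.09 and 0.00, with implied errors of 0.18, 0.18 and 0.21. Nf1, which codes for neurofibromin, a Ras GTPase activator, measured 10.1, 10.2, 10.5 and 10.3 FPKM. Dyrk1a, a dose-sensitive kinase gene, measured 13.6, 14.9, 12.4 and 13.6, and Met 0.606, 0.680, 0.544 and 0.591. Both were highest in knockdown and lowest in the cytoplasmic rescue. Fmr1, whose product FMRP holds back translation of neuronal messenger RNAs and whose silencing causes fragile X syndrome, measured 13.4, 15, 14.9 and 15.9 FPKM and was lowest in control.

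Adhesion and matrix genes included the member with the smallest p. Pcdh19 (chromosome X, 130117400 to 130223532 in mm9) codes for a protocadherin, and its variants cause an epilepsy with autistic features. It measured 3.01 FPKM in control, 3.80 in knockdown, 2.81 in the cytoplasmic rescue and 3.5 in the nuclear rescue. The knockdown level was the highest and the cytoplasmic rescue the lowest, with control just above it. In the authors' deposited tables the log2 fold change was 0.34 in the knockdown (implied error 0.13, p = 0.0129 and q = 0.404 by the authors' test). It was -0.43 in the cytoplasmic rescue (implied error 0.15, p = 0.00375 and q = 0.194 by the authors' test) and -0.12 in the nuclear rescue (implied error 0.14). The q of 0.194 was the lowest of all 32 genes in the 3 tables, and was not below 0.05. A transcript on the strand opposite to Pcdh19, Gm26851, overlaps its exons in GENCODE, and its reads would be counted alike.

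The remaining adhesion genes were each highest in control, except Dscam. Cntnap2, a neurexin-like protein gene needed to cluster potassium channels on axons, measured 18.5 FPKM in control, 16.5 in knockdown, 15.3 in the cytoplasmic and 15.6 in the nuclear rescue. Reln, coding for the secreted protein that guides neuron positioning and is made by interneurons in the mature hippocampus, measured 28.8, 26.1, 25.3 and 24.5 FPKM. Cntnap4, a relative of Cntnap2, measured 13.9, 13, 12.2 and 12.9 FPKM, and Dscam, a homophilic adhesion receptor gene, 9.49, 9.69, 9.55 and 10.2. None of them passed in any comparison.

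Among scaffold, cytoskeleton and trafficking genes, Ctnnb1 measured 308.7 FPKM in control, 285 in knockdown, 267 in the cytoplasmic and 273 in the nuclear rescue, with the widest implied error of the list, 0.39 in the nuclear rescue. Ank2 measured 82.8, 78.2, 76.4 and 70.2 FPKM. Iqsec2 measured 2.31, 2.46, 2.80 and 2.81 FPKM, with both rescues above the other 2 groups. Katnal2 (chromosome 18, 77231939 to 77286035 in mm9), related to the microtubule-severing enzyme katanin, measured 2.24 FPKM in control, 2.26 in knockdown, 1.92 in the cytoplasmic and 1.96 in the nuclear rescue, with both rescues below. In the authors' deposited tables its log2 fold changes were 0.01, -0.24 and -0.21, with implied errors of 0.20, 0.20 and 0.21.

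Over the 32 genes the median log2 fold change in the authors' deposited tables was 0.04 in the knockdown, where all genes had 0.02, and 19 lay above 0. In the cytoplasmic rescue it was -0.10, where all genes had -0.06, and 25 of 32 lay below 0, as did 10425 of 15514 genes. In the nuclear rescue it was -0.03, where all genes had -0.02, with 21 below 0. The values ran from -0.20 to 0.34, from -0.43 to 0.32 and from -0.21 to 0.32 in the 3 comparisons. Past 0.25 on the log2 scale in either direction lay 1 of the 32 in the knockdown (3.13%), 7 in the cytoplasmic rescue (21.9%) and 1 in the nuclear rescue (3.13%). Among all genes of at least 1 FPKM in a group, a level that 30 of the 32 reached, the shares were 18.4%, 12.4% and 4.43%, and among all genes of any level 24.8%, 18.9% and 10.0%. In the knockdown the share of risk genes was below both of these shares, on a count of 1. In the cytoplasmic rescue the 7 include Tbr1 and Met, which lay under 1 FPKM. Their count is therefore not matched to the 12.4%, and against genes of any level the shares were 21.9% and 18.9%. The cytoplasmic rescue held the lowest of the 4 levels for 17 of the 32 genes and the knockdown group for 3. The same share over all genes was not computed, so whether this count sets the risk genes apart was not tested.

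**Figure D3:**
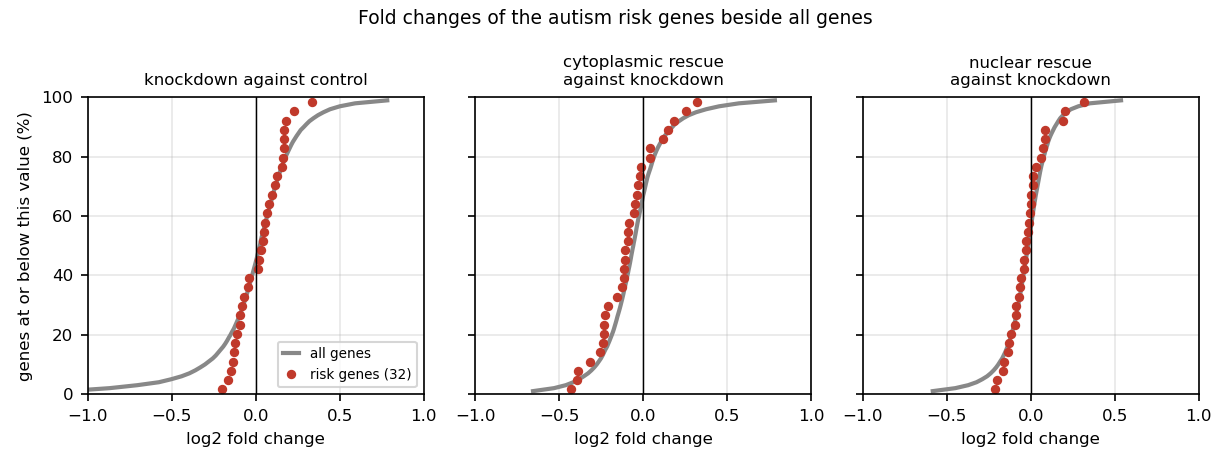
Cumulative percentage of genes against log2 fold change in the 3 comparisons, with all genes as a grey line and the 32 autism risk genes as red points. The risk genes follow the grey line near its middle (medians 0.04, -0.10 and -0.03 against 0.02, -0.06 and -0.02), and in the knockdown Cul3 is lowest at -0.20.

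The isoforms were compared by the difference of the rescue fold changes, nuclear minus cytoplasmic, in a z test with Benjamini-Hochberg adjustment over 15365 genes. Of all genes, 4 passed an adjusted p below 0.05 (0.026%), and of the 32 risk genes none passed; without adjustment p was below 0.05 for 0 of 32 and for 0.794% of all genes. The differences ran from -0.13 in Cul3 to 0.36 in Tbr1, with a median of 0.07 where all genes had 0.04. Pcdh19 differed by 0.31 with an error of 0.21. Errors of the rescues were added as if they shared no samples, which makes this test conservative, and the interval of the difference lay within 0.5 on either side of 0 for 10 of the 32 genes.

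The splicing tables hold only cassette exons that the authors called for a change of inclusion of at least 0.1 on these same reads. A test of the listed reads therefore repeats that selection in part, and its p is given as a description of the reads behind an exon. Of the 32 genes, 2 had an exon in the knockdown table, Tsc2 and Med13l, and 1, Tsc2, in each rescue table. Over all genes 1.16%, 0.844% and 1.73% had a listed exon in the knockdown, cytoplasmic rescue and nuclear rescue table. The counts in the list are too small to be set apart from these shares. The exons are shown because skipping leaves the reading frame intact in one and shifts it in the other. Exon letters are capitals, the 15 bases of the neighbouring exon on either side are in lower case, and the sequences are from GENCODE transcripts of build GRCm38, matched by gene and by the sizes of the exon and both neighbours:

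Tsc2 exon 26 of 41, chr17:24606224-24606352, minus strand: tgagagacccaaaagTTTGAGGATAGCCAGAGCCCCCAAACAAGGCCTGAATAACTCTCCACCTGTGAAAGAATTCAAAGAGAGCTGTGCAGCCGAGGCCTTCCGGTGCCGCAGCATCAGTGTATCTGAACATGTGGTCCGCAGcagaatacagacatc
Med13l exon 3 of 31, chr5:118671013-118671097, plus strand: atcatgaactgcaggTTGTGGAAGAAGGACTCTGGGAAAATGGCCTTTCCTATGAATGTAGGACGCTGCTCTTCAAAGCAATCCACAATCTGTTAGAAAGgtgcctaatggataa

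The Tsc2 exon (chromosome 17, 24743169 to 24743297 in mm9) was included less often in knockdown neurons and more often in both rescues than in knockdown. It has 129 bases, 43 codons, so that both forms keep the reading frame, which has 1785 codons before the stop with it and 1742 without it. In GENCODE, 2 coding transcripts contain it and 3 join its neighbours directly. Inclusion in the authors' deposited tables was 0.592 in control, 0.491 in knockdown, 0.625 in the cytoplasmic rescue and 0.634 in the nuclear rescue. The knockdown group was lowest, and both rescues lay above control. Reads on the inclusion junctions numbered 112 and 83 in control, 112 and 86 in knockdown, 143 and 102 in the cytoplasmic rescue, and 168 and 101 in the nuclear rescue. Reads on the skipping junction numbered 37, 71, 45 and 44 in the same order, so skipping reads were most numerous in knockdown.

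Taking the mean of both inclusion junctions, 72.6% of Tsc2 junction reads included the exon in control (95% Wilson interval 64.5 to 79.4), 58.2% in knockdown (50.7 to 65.4), 73.2% in the cytoplasmic rescue (66.1 to 79.3) and 75.4% in the nuclear rescue (68.6 to 81.1). The lower share in knockdown passed Fisher's exact test (two-sided, adjusted p = 0.0366 over the 214 exons already selected by the authors), as did 32.2% of them. The higher inclusion in the cytoplasmic rescue passed too (Fisher's exact test, adjusted p = 0.0252 over 150 exons, where 20.7% passed), and so did that in the nuclear rescue (Fisher's exact test, adjusted p = 0.0026 over 318 exons, where 53.5% passed). The knockdown reads are the same in all 3 tests, which are therefore not independent, and the tests and intervals cover counting error in pooled libraries, not the spread between samples. By size of the deposited change, -0.101, 0.134 and 0.143, the exon ranked 209 of 214, 51 of 150 and 119 of 318 among listed exons, the smallest listed change being 0.1. The FPKM of Tsc2 lay between 10.0 and 10.7 in the 4 groups. The expression tables give Tsc2 and its neighbour on the opposite strand, Pkd1, one joint locus.

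**Figure D4:**
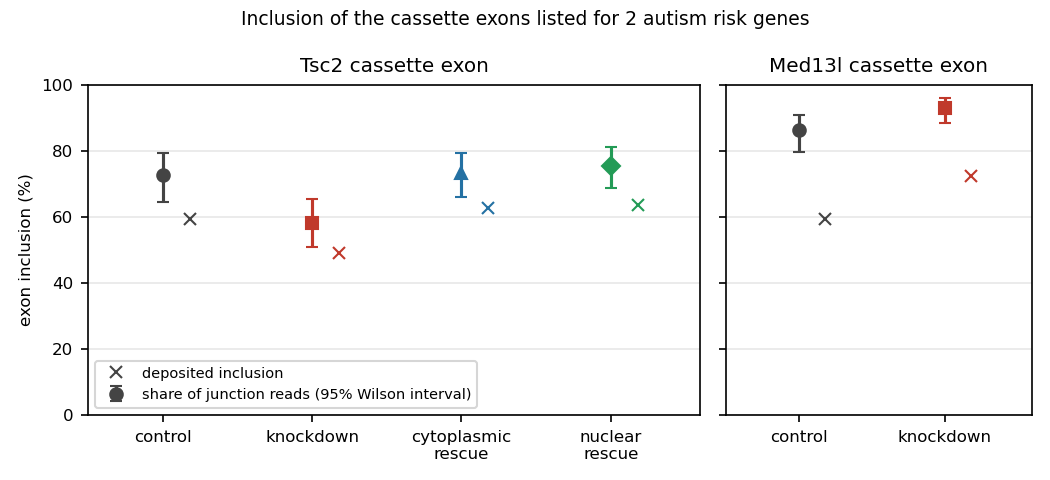
Exon inclusion in percent for the Tsc2 exon in 4 groups and the Med13l exon in the 2 groups for which it is listed, as the share of junction reads that include it (filled symbols, bars are 95% Wilson intervals) and as the deposited inclusion (crosses). The Tsc2 share is lowest in knockdown, 58.2% against 72.6% to 75.4% in the other groups.

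The Med13l exon (chromosome 5, 119121022 to 119121106 in mm9) went the other way in the authors' deposited table, from an inclusion of 0.594 in control to 0.722 in knockdown. Its 85 bases leave a remainder of 1 after division by 3, and in the annotated transcript skipping it gives a stop after 105 codons, where the full reading frame has 2207. No coding transcript in GENCODE skips it. Inclusion junction reads were 143 and 105 in control and 177 and 143 in knockdown, and skipping reads 20 and 12. The share of junction reads that include it was 86.1% in control (95% Wilson interval 79.5 to 90.8) and 93.0% in knockdown (88.2 to 96.0). This difference did not pass Fisher's exact test (two-sided, adjusted p = 0.117), and the intervals overlap. The exon is in neither rescue table. Neither TGCATG nor GCATG, its last 5 letters, occurs in the Tsc2 or Med13l exon or in the exons on either side on the transcript's strand. Introns were not searched, because no genome of the files' build was used.

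Genes of the pathways around the list were given by 12 fixed lists (BAF subunits, other CHD remodellers, histone methyltransferases and demethylases, the TSC and mTOR pathway, Ras regulators and effectors, the reelin pathway, beta-catenin and Wnt, cullins and HECT ligases, the FMRP family, contactins, ankyrins and spectrins, and protocadherins with DSCAM relatives). In the knockdown 2 of 142 measured genes were called higher and 1 lower by the authors' q, about the 2.35% called over all genes, so the count sets these pathways apart in no way. In each rescue 0 of 141 were called, where 0.506% and 0.11% of all genes were. Mapk3, the kinase ERK1 at the end of the Ras cascade that Nf1 restrains, rose from 16.2 to 22.6 FPKM, which is 0.48 on the log2 scale in the authors' deposited table (implied error 0.13, q = 0.0327 by the authors' test). Cntn2, a contactin that pairs with Cntnap2 on axons, rose from 4.27 to 5.99 FPKM (log2 fold change 0.49 in the authors' deposited table, q = 0.0211 by the authors' test). Pcdh11x, a protocadherin like Pcdh19, fell from 32.4 to 16.3 FPKM, which is -0.99 on the log2 scale in the authors' deposited table (q = 4.49e-11 by the authors' test), and stood at 18 FPKM in the cytoplasmic rescue and 16.5 in the nuclear rescue. Mapk3 stood at 17.2 and 21.8 FPKM and Cntn2 at 4.71 and 6.36 in the rescues, values that were not called. The 3 genes are partners or relatives of Nf1, Cntnap2 and Pcdh19, whose own levels were given above.

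Exons of these pathway genes were listed in all 3 splicing tables. By gene, 1 of 142 measured pathway genes had one in the knockdown, 3 of 141 in the cytoplasmic rescue and 7 of 141 in the nuclear rescue. Over all genes the shares with a listed exon were 1.16%, 0.844% and 1.73%. Whether the pathway genes differ from these shares was not tested. The tables held 1 such exon among 214 in the knockdown, 3 among 150 in the cytoplasmic rescue and 7 among 318 in the nuclear rescue, of which 0, 0 and 5 passed Fisher's exact test at an adjusted p below 0.05. Over all listed exons 32.2%, 20.7% and 53.5% passed, so 5 of 7 is not set apart from the nuclear table as a whole. The 5 lie in Fxr1, a paralog of Fmr1, Kmt2c, a histone methyltransferase gene listed as Mll3, Apc, which marks beta-catenin for destruction, Ank3, a paralog of Ank2, and Sptan1, an alpha-spectrin gene listed as Spna2. They are named because they passed and were picked after their values were seen. As for Tsc2, these exons were already selected by the authors for a change on the same reads. Their tests cover counting error in pooled libraries, not the spread between samples. The 81-base exon of Fxr1 went from an inclusion of 0.205 in knockdown to 0.329 in the nuclear rescue in the authors' deposited table, on 101 inclusion and 251 skipping reads against 180 and 242 (Fisher's exact test, adjusted p = 2.41e-04). Sptan1 went the other way, from 0.815 to 0.674 in the authors' deposited table (Fisher's exact test, adjusted p = 1.47e-40), with 5358 inclusion and 1178 skipping reads in knockdown and 4465 and 1751 in the nuclear rescue. The exons of Kmt2c, Apc and Ank3 were included more in the nuclear rescue, by 0.154, 0.114 and 0.183 in the authors' deposited table. No exon of Fmr1, Ctnnb1 or Ank2, the members related to these genes, was listed in any table.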

How the data were processed

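RNA-seq of 8 samples in 4 groups was analysed from tables in mouse build mm9, made with CASAVA and Cufflinks per the submitters' processing notes (no version is named in these notes). The labels' protocols give ribosomal RNA removal and unstranded paired-end reads of 50 nt. The deposited expression tables hold 1 FPKM value per group, with libraries combined by the authors, and the authors' log2 fold change (unit score, since a group at 0 gives an extreme value), p-value and q-value. The deposited splicing tables list only called cassette exons, with an inclusion fraction, a change score, the authors' p-value and counts of junction reads per group. A further 36 value columns were not used. Depth per sample is unknown.

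The authors' p-value equalled the normal tail of the test statistic within 2.81e-06, so the implied error is the fold change over that statistic. Calls are the authors' q below 0.05; the rescue difference used a z test and exons Fisher's exact test (two-sided, scipy 1.17.1), both with Benjamini-Hochberg adjustment over the whole table. The tests were checked on simulated data with changes larger than those of the risk genes and their exons, so the check does not cover changes of that size. The planned model over libraries was not possible on group values.

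Members and lists were chosen with earlier results of these data known. Levels and errors are given for members with q below 0.05 or unadjusted p below 0.05, the 3 largest fold changes per table among genes of at least 1 FPKM, and members with a listed exon; other members are given by level (Tbr1, outside the rule, also by fold change), and partners with q below 0.05 are named.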

Additional observations from a re-analysis of the deposited data

How the results depend on the processing

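No paired analysis was possible because the deposited tables hold 1 value per group, and for the same reason no sample could be left out. Of the risk genes 0 were called in each comparison under 5 alternative settings, 15 runs in all (q below 0.01, q recomputed in the table or over genes of at least 1 FPKM, or a change of at least 0.5 with a pseudocount of 1 or 0.1). A q below 0.01 and a minimum change only narrow the authors' calls, so those runs could not have called a risk gene. Only the runs with a recomputed q could have done so. Recomputed q came no lower than 0.203 for a risk gene. None differed between rescues with the larger error alone, where 26 of all genes passed in place of 4. All 51 fold changes and medians recomputed with another pseudocount, filter or centring kept their sign, and moved by less than the error (for medians, the median implied error). A pseudocount cannot change the sign of a single gene, and the single genes were picked for large changes. The error is larger than the medians themselves, so it is a loose limit for them. Centring on all genes took the knockdown median from 0.037 to 0.010. For the Tsc2 exon, an adjusted p below 0.01 left 0 exons of the list in the knockdown and cytoplasmic rescue, while the nuclear rescue kept 1, and a change of at least 0.2 left 0 in all 3, since its change is under 0.2. Requiring 50 junction reads per group kept 1 in each. The sum of both inclusion junctions, chosen after seeing the data, gave adjusted p of 0.0159, 0.00989 and 6.84e-04 (Fisher's exact test), and 91 exons passing in place of 69 in the knockdown. At the median implied error of the risk genes, a change under 0.50 on the log2 scale in the knockdown, or under 0.55 and 0.56 in the rescues, would not have been called.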
